A study of Mus musculus with 52 samples.

Results

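The genes followed here are 7 genes that cAMP signalling is known to induce, several of which act back on it. They are the transcription factor genes Crem, Nr4a1, Nr4a2 and Nr4a3, the phosphodiesterase genes Pde4b and Pde3b, and Pkib, an inhibitor of protein kinase A. They were chosen by symbol, and all 7 were among the 23135 gene rows of the count table. The table holds 52 libraries in 13 groups of 4 (libraries A to D) from mouse CD103+ cDC1, the dendritic cells that cross-present antigen to CD8 T cells. Bone marrow of C57BL/6 mice was cultured with FLT3L and GM-CSF, and the CD103+ cells were sorted from it before treatment. Of the 9 groups at 4 h, 1 was left untreated, 1 received PGE2 (100 ng/ml), 1 received medium conditioned by BRAFV600E melanoma cells (control CM) and 1 medium of Ptgs1/Ptgs2-/- BRAFV600E melanoma cells (Ptgs-null CM). The other 5 received PGE2 after 30 min with a receptor antagonist at 5 uM, which was SC-19220 for EP1, PF-04418948 for EP2, L-826,266 for EP3, a further compound for EP4, or a pair against EP2 plus EP4. Of the 4 groups at 24 h, 1 was untreated, 1 received PGE2, 1 received poly I:C (10 ug/ml, a TLR3 ligand) over the final 4 h and 1 received both. The titles of 4 libraries give EP2 plus EP4 antagonists, but their treatment tag names the EP1 compound SC-19220 together with the EP4 compound. They are called the libraries labelled EP2 plus EP4 antagonists throughout. The Ptgs deletion belongs to the melanoma cells that conditioned the medium, so no count in the dendritic cells checks it. The sources call the 4 libraries of a group biological replicates without saying that they came from separate animals or cultures, so each p-value measures the spread among these libraries only, and that spread may be technical. In bulk libraries such as these, fewer cells that express a gene and less RNA of it per cell cannot be told apart.

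The libraries held 42666 to 438491 counts of unique molecules, with a median of 295484.5. The shallowest were library A of the EP4 antagonist group and library A of the untreated cells at 4 h, with 42666 and 54107 counts. At the median depth a count of 0 allows up to 3 counts, or 10.2 CPM (counts-per-million values), and this limit covers counting error only. Levels are given as CPM of library totals scaled by TMM, a scaling that sets most genes equal between libraries. All 18 markers of cDC1 were detected in every group. Their summed level was 11180 to 12120 CPM per library in untreated cells at 4 h and 7238 to 8079 CPM with PGE2, 8848 to 9127 CPM with control CM, 9903 to 12990 CPM with Ptgs-null CM and 9791 to 10530 CPM in the libraries labelled EP2 plus EP4 antagonists. Summed markers of granulocytes or mast cells (7 of 14 listed genes in the table) stayed at or below 15.3 CPM and those of lymphocytes (8 of 12 in the table) at or below 25.1 CPM in every library. Markers of cDC2 (12 genes) summed to 129 to 205 CPM in untreated cells and 168 to 229 CPM with PGE2 at 4 h, and those of macrophages or monocytes (15 of 16 in the table) to 887 to 1430 CPM and 916 to 1150 CPM, most of it Lyz2, while the macrophage marker Adgre1 had 2 counts and 0 counts in these groups. Plasmacytoid dendritic cell markers (12 genes) summed to 135 to 199 CPM and 122 to 212 CPM. Melanoma markers (6 of 10 in the table) summed to 35.6 to 65.9 CPM with control CM and 3.30 to 21.2 CPM with Ptgs-null CM. Kit supplied 49.1 and 13.3 CPM of these in the mean, and the pigment genes Dct and Pmel had no count in either medium. Without melanoma medium the same markers summed to 29.01 to 49.68 CPM with PGE2 at 4 h and 30.67 to 61.85 CPM with PGE2 at 24 h. In untreated cells they summed to 5.74 to 45.9 CPM at 4 h and 6.60 to 28.2 CPM at 24 h. The part of these cell markers in the results below was not tested.

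cAMP is made by adenylyl cyclases when a receptor coupled to Gs, such as the PGE2 receptors EP2 and EP4, is occupied. It activates protein kinase A, whose catalytic subunits phosphorylate CREB and so switch on genes with a cAMP response element in their promoter. Several of the genes induced in this way limit the signal: phosphodiesterases of the PDE3 and PDE4 families break cAMP down, PKI proteins block the catalytic subunit, and the short CREM protein ICER binds the same elements as CREB without activating them. The NR4A proteins are nuclear receptors that act without a known hormone and are made within hours of many stimuli. The counts come from the 3' ends of transcripts, so they do not tell ICER from other Crem transcripts, or the several start sites of Pde4b from each other.

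The Nr4a genes carry the half-site of the cAMP response element in their promoters, and their upstream sequences are shown first. Nr4a2 and Nr4a3 moved differently in these cells, while Nr4a1 had too few counts to say how it moved. RefSeq promoter windows (GRCm38.p6) of 300 bases, 250 before the start site and 50 after it, were matched for 5 of the 7 genes. Crem and Pde3b had no window. The motifs searched on both strands were the full element TGACGTCA and its half-site TGACG, which on the other strand reads CGTCA. The half-site is contained in the full element. Among all 32851 windows of the same length, 1.79% held the full element, 20.8% held at least 1 half-site and 0.231% held 4 or more. The windows of Nr4a1, Nr4a2 and Nr4a3 held 4 half-sites each, with no full element. The half-sites are in capitals in the 250 bases before each start site, 5′ to 3′ on the strand of the gene, at chr15:101266596-101266845 (plus strand) for Nr4a1, chr2:57124004-57124253 (minus strand) for Nr4a2 and chr4:48045055-48045304 (plus strand) for Nr4a3.
Nr4a1: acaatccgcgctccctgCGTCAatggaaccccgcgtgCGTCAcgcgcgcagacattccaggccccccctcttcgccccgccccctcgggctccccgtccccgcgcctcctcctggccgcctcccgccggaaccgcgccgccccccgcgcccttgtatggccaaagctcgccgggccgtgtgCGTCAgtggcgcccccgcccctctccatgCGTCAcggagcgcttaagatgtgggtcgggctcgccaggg
Nr4a2: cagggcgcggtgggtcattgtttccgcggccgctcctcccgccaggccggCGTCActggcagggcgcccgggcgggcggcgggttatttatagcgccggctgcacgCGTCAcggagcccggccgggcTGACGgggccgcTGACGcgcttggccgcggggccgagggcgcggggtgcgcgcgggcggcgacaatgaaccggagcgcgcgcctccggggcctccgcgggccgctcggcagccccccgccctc
Nr4a3: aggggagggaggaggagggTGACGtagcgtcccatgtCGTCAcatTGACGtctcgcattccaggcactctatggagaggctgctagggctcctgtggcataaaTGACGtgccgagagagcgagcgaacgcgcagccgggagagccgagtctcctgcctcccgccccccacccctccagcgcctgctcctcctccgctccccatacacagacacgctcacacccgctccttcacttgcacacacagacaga
The half-site nearest to the start site lay at -40 to -36 in Nr4a1, -111 to -107 in Nr4a2 and -147 to -143 in Nr4a3. Of the 4 windows of Pde4b, 1 held a single half-site, at -34 to -30, and the other windows of Pde4b and both windows of Pkib held none. A match is a description of these letters and not evidence of a bound site.

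Which of the genes responded to PGE2, and to a tumour medium with or without the cyclooxygenases that make it? Counts were tested with edgeR's quasi-likelihood test (two-sided, Benjamini-Hochberg adjustment over all genes tested, threshold an adjusted p of 0.05). Crem, Nr4a2, Pde4b, Pde3b and Pkib passed the expression filter of the fit over all 36 libraries at 4 h, while Nr4a1 and Nr4a3 had too few counts. The low genes among those 5 passed through the groups in which they were high, so the counts of calls below describe these genes and are no separate support. With PGE2 at 4 h, 5 of the 5 tested genes rose, where 8.57% of all 5754 tested genes were called in either direction. With control CM against untreated cells 5 of 5 rose (7.51% of all genes called). With Ptgs-null CM against untreated cells none of the 5 was called (0.0869% of all genes). Control CM against Ptgs-null CM again called 5 of 5 as higher (3.86%). Summed cDC2 markers were also higher with control CM, at 246 to 265 CPM against 179 to 234 CPM with Ptgs-null CM, without overlap, and their part in the result was not tested. Of these sums Epcam supplied 155.9 and 145 CPM in the mean and Cd209a 57.9 and 31.95 CPM. The cDC2 marker Sirpa had 1 count in either medium and Clec4a4 had 0. Control CM against PGE2 called none of the 5 genes (0.122%). The first 3 of these comparisons share the untreated libraries, and the others share libraries with them.

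Crem encodes a CREB-family factor, and its induced short form ICER represses CREB target genes (chromosome 18, 3266048 to 3337748, minus strand, GRCm38). It was close to absent in untreated cells at 4 h, with 1, 0, 3 and 2 counts in libraries A to D (15.3, 0, 8.62 and 5.30 CPM). With PGE2 the 4 libraries stood at 179, 210, 183 and 123 CPM, all far above the untreated range. The log2 fold change was 4.89 ± 0.65 (SE, adjusted p = 1.52e-06), a 29.6-fold rise. Control CM gave 226, 154, 181 and 112 CPM, a range that overlapped that of PGE2. Its log2 fold change against untreated cells was 4.80 ± 0.65 (adjusted p = 2.99e-06), and against PGE2 it was -0.09, with a 95% interval from -0.79 to 0.61. With Ptgs-null CM the libraries split: A, C and D stood at 8.54, 4.00 and 29.7 CPM, and B at 97.1 CPM. All 4 were below the lowest library of control CM. The difference between the media was 2.17 ± 0.43 on the log2 scale (adjusted p = 0.00156) and 3.49 without library B (adjusted p = 2.03e-14). In a fit of these 2 groups alone it was 2.18 and missed the threshold (adjusted p = 0.169). Gm6225 lies on the other strand within Crem, and no source used here gives the strand setting of the counting, so reads of these genes cannot be told apart.

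Of the Nr4a nuclear receptor genes, only Nr4a2 had a change that passed the test at 4 h, and the other two had counts too low for the fit. Nr4a2 (chromosome 2, 57106830 to 57124003, minus strand) is known for its role in dopamine neurons and as an early response gene in immune cells. It had 0, 0, 2 and 1 counts in untreated cells and 11, 17, 21 and 9 counts with PGE2, which is 51.7, 65.0, 60.9 and 50.3 CPM. The ratio of the summed counts, 58 against 3, was 21.1 with a 95% counting interval from 6.86 to 105 (edgeR's quasi-likelihood adjusted p = 1.02e-07). Control CM gave 24.6, 76.9, 57.7 and 41.0 CPM, with a ratio of 18.1 to untreated cells (56 against 3 counts, interval 5.87 to 90.2, adjusted p = 7.97e-07). Ptgs-null CM gave 2.85, 30.3, 4.00 and 0 CPM. Library B of the Ptgs-null CM was again the high one, and it overlapped the lowest library of control CM. The log2 fold change between the media was 2.31 ± 0.50 (adjusted p = 0.000545), and 4.26 without that library (adjusted p = 7.59e-07).

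Nr4a1 (chromosome 15, 101254269 to 101274795, plus strand) encodes the early response receptor Nur77, and it was barely detected. It had 0 to 5 counts in any library and 1 to 7 counts in any group of 4, so its level was 0.870 to 7.19 CPM in the group means. With PGE2 at 4 h it had 1 count against 3 in untreated cells, and an exact permutation test of the CPM found no difference (two-sided p = 0.714, the smallest possible p for 4 against 4 being 0.0286). Nr4a3 (chromosome 4, 48045153 to 48086447, plus strand), which encodes the receptor NOR1, had a low level at 4 h in all groups. It stood at 15.3, 20.2, 11.5 and 0 CPM in untreated cells and 9.41, 19.1, 20.3 and 16.8 CPM with PGE2. The groups overlapped, with 11 and 17 counts in all and an exact permutation p of 0.429. Control CM gave 36.9, 14.6, 12.4 and 35.6 CPM, which also overlapped untreated cells (p = 0.200, exact permutation test, adjusted 0.378 over 17 such tests). The ratio of the summed counts, 29 against 11, was 2.55, with a 95% counting interval from 1.24 to 5.66.

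**Figure D1:**
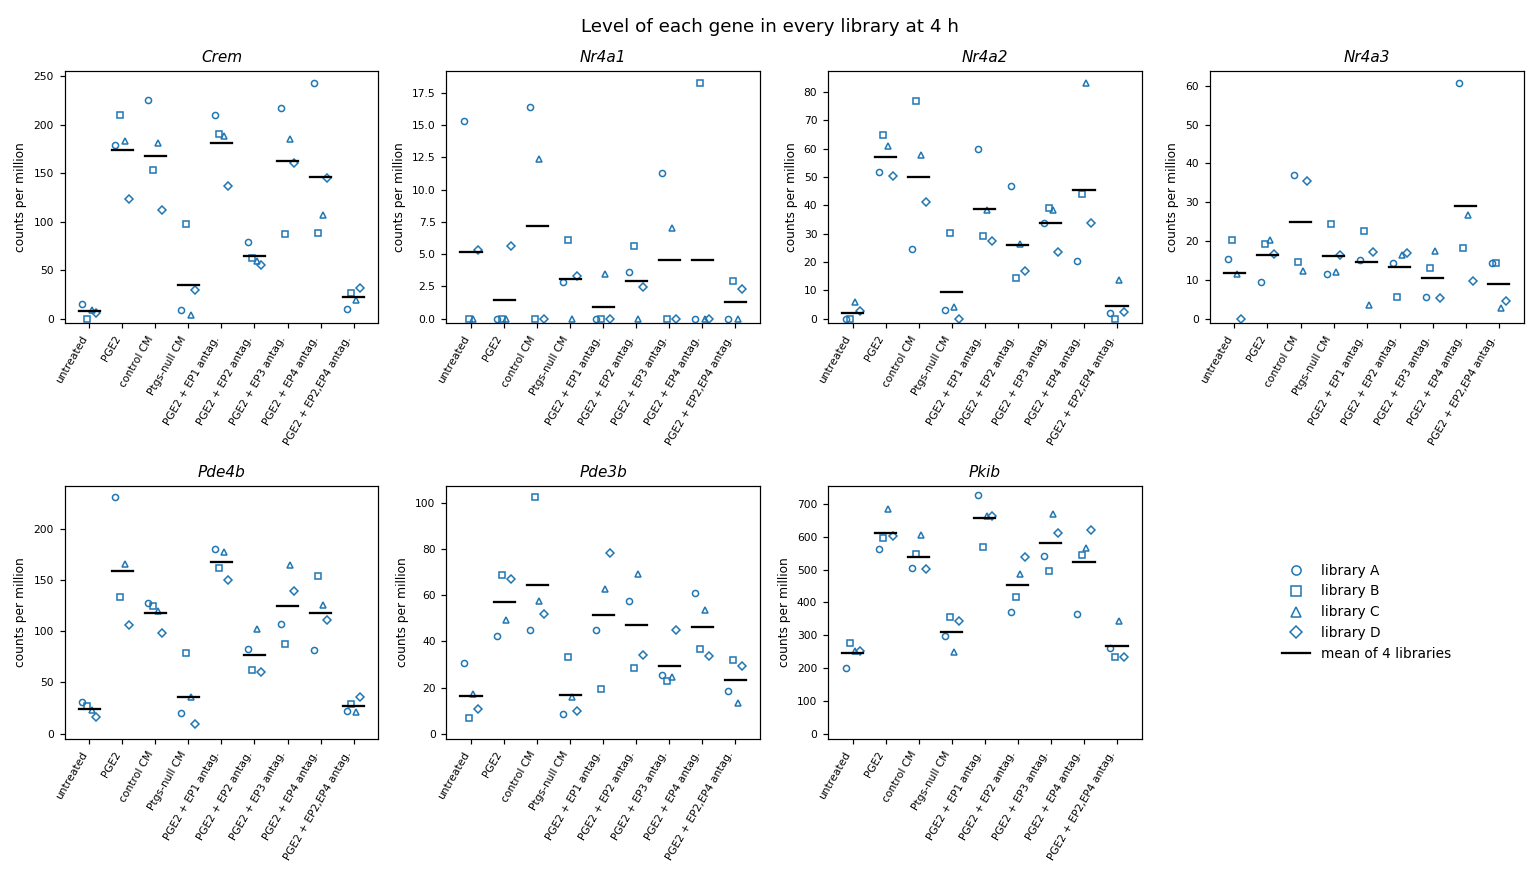
CPM of the 7 genes (y axis, own scale per panel) in each library of the 9 groups at 4 h, with a marker shape for each library letter and a bar for the mean of 4 libraries. Crem, Nr4a2, Pde4b, Pde3b and Pkib are high with PGE2 and control CM and below every PGE2 library in the libraries labelled EP2 plus EP4 antagonists, while Nr4a1 and Nr4a3 stay low in all groups.

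Of the enzymes that break down cAMP, Pde4b and Pde3b both rose with PGE2. Pde4b (chromosome 4, 102087543 to 102607259, plus strand) encodes a cAMP-specific phosphodiesterase that is prominent in immune cells. It stood at 30.6, 26.9, 23.0 and 15.9 CPM in untreated cells and 230, 134, 165 and 106 CPM with PGE2, with no overlap. The log2 fold change was 2.82 ± 0.32 (adjusted p = 4.01e-13), a 7.06-fold rise. Control CM gave 127, 124, 119 and 98.5 CPM, a range that held 1 of the 4 PGE2 libraries, D at 106 CPM. Against PGE2 its log2 fold change was -0.45, with an interval from -0.91 to 0.01. Ptgs-null CM gave 19.9, 78.9, 36.04 and 9.89 CPM, with library B again the highest. All 4 were below control CM, by a log2 fold change of 1.66 ± 0.29 between the media (adjusted p = 7.78e-06). Without library B this difference was 2.44, and it was 2.49 for Pde3b and 0.85 for Pkib.

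Pde3b (chromosome 7, 114415281 to 114539251, plus strand) encodes a phosphodiesterase that cGMP inhibits and that is best known for the action of insulin on fat cells. It stood at 30.6, 6.73, 17.2 and 10.6 CPM in untreated cells, where the highest value rests on 2 counts in the shallow library A. With PGE2 it stood at 42.3, 68.8, 49.3 and 67.0 CPM, above all untreated libraries. The log2 fold change was 2.07 ± 0.46 (adjusted p = 0.000314). Control CM gave 45.1, 102, 57.7 and 52.0 CPM and Ptgs-null CM 8.54, 33.4, 16.02 and 9.89 CPM. The media did not overlap and differed by 1.89 ± 0.40 (adjusted p = 0.000452).

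Pkib (chromosome 10, 57631981 to 57741112, plus strand) encodes a PKI protein, which blocks the catalytic subunit of protein kinase A. It was well counted in untreated cells, at 199, 276, 253 and 252 CPM. PGE2 gave 564, 596, 685 and 603 CPM, a log2 fold change of 1.27 ± 0.15 (adjusted p = 1.21e-12) or 2.41-fold. Control CM gave 505, 549, 606 and 501 CPM and Ptgs-null CM 299, 355, 248 and 343 CPM. These media did not overlap, and they differed by 0.78 ± 0.14 (adjusted p = 1.37e-05). Library B was the highest of the Ptgs-null CM in all 5 tested genes. Against untreated cells, the log2 fold changes with Ptgs-null CM were 2.63 ± 0.86 for Crem, 0.71 ± 0.40 for Pde4b, 0.38 ± 0.54 for Pde3b and 0.30 ± 0.15 for Pkib, with adjusted p-values of 0.396, 0.819, 0.972 and 0.795 by edgeR's quasi-likelihood test. For Nr4a2 the ratio was 3.53 (12 against 3 counts, 95% counting interval 0.952 to 19.5). The ratio of counts was 6.61 for Crem (45 against 6, interval 2.81 to 19.0) and 1.23 for Pkib (interval 1.05 to 1.44). The counting intervals of Pde4b and Pde3b included equal levels. Without library B the log2 fold changes of Ptgs-null CM against untreated cells were 1.32 for Crem, -0.07 for Pde4b, -0.22 for Pde3b and 0.24 for Pkib.

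How did the genes respond to PGE2 after a receptor antagonist? No group received an antagonist without PGE2, so an effect of the compounds themselves and a block of the receptor cannot be told apart. With an antagonist of a single receptor, 1 gene was called against PGE2 alone, Pde4b with the EP2 antagonist. In the libraries labelled EP2 plus EP4 antagonists 5 of the 5 tested genes fell against PGE2 alone (9.47% of all genes called), and none was called against untreated cells (0.799%). Crem was nevertheless higher there than in untreated cells in the mean, at 21.7 against 7.30 CPM (log2 fold change 1.86 ± 0.92, adjusted p = 0.450), and the ratio of its counts, 35 against 6, was 3.85 with a 95% counting interval from 1.60 to 11.2. For Pde3b the log2 fold change against untreated cells was 0.80 ± 0.49 (adjusted p = 0.586). Summed macrophage or monocyte markers were 1301 to 1675 CPM in these libraries and 916 to 1150 CPM with PGE2 alone, without overlap, and their part in the result was not tested. Crem stood at 10.2, 26.0, 18.9 and 31.7 CPM there, Nr4a2 at 2.04, 0, 13.5 and 2.27 CPM, and Pde4b at 22.4, 28.9, 21.5 and 36.3 CPM. Every one of these values was below the lowest library with PGE2 alone. The log2 fold changes against PGE2 were -3.02 ± 0.45 for Crem (adjusted p = 1.19e-05), -3.63 ± 0.53 for Nr4a2 (2.85e-08) and -2.53 ± 0.28 for Pde4b (6.11e-14). Pkib, at 261, 234, 342 and 233 CPM, fell by 1.20 ± 0.14 on the log2 scale (adjusted p = 4.24e-13). Pde3b, at 18.3, 31.8, 13.5 and 29.5 CPM, fell by 1.27 ± 0.37 (adjusted p = 0.0137). The call of Pde3b was lost when library B of PGE2 (adjusted p = 0.0687) or library A or C of the labelled group was left out (0.0580 and 0.0657).

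The EP2 antagonist called 1 of the 5 genes against PGE2 (0.417% of all genes), namely Pde4b, which stood at 82.9, 62.2, 102 and 60.5 CPM. This was below every library with PGE2 alone, a fall of 1.08 ± 0.24 on the log2 scale (adjusted p = 0.00915). The call was lost without library A of PGE2 (adjusted p = 0.160) or library B or D of the EP2 antagonist (0.0608 and 0.103). Crem stood at 79.3, 62.2, 59.2 and 55.7 CPM, also below every PGE2 library. Its log2 fold change of -1.47 ± 0.39 had an adjusted p of 0.102, but in a fit of these 2 groups alone it was -1.48 with an adjusted p of 1.39e-08. Nr4a2 (46.8, 14.1, 26.3 and 16.9 CPM) and Pkib (371, 416, 487 and 540 CPM) did not overlap PGE2 either, with log2 fold changes of -1.20 ± 0.41 (adjusted p = 0.243) and -0.43 ± 0.13 (adjusted p = 0.146). For Pkib the test of these 2 groups alone gave an adjusted p of 0.0156 and DESeq2 gave 0.0476. Pde3b overlapped PGE2, at 57.6, 28.3, 69.0 and 33.9 CPM, with a difference between -0.98 and 0.39 on the log2 scale (95% interval).

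With the EP4 antagonist alone none of the 5 genes was called against PGE2 (0.0348% of all genes). Crem stood at 244, 87.8, 107 and 145 CPM, where library A is the shallow one and its value rests on 12 counts. The log2 fold change was -0.51, with a 95% interval from -1.30 to 0.27. Nr4a2 ranged from 20.3 to 83.4 CPM, Pde4b from 81.2 to 154 CPM, Pde3b from 33.7 to 60.9 CPM and Pkib from 365 to 622 CPM, and all overlapped PGE2. Their differences from PGE2 had intervals from -0.89 to 0.68, -0.80 to 0.16, -1.10 to 0.41 and -0.41 to 0.13. The EP1 and EP3 antagonists called none of the 5 genes (0% and 0.0869% of all genes). With the EP1 antagonist no gene at all passed in edgeR or DESeq2, with 272 genes at an unadjusted p under 0.05 in edgeR. Its 95% intervals against PGE2 ran from -0.68 to 0.73 for Crem, -0.38 to 0.51 for Pde4b, -0.82 to 0.59 for Pde3b and -0.17 to 0.35 for Pkib. For Nr4a2 the log2 fold change with the EP1 antagonist was -0.66, with an interval from -1.47 to 0.14, and 3 libraries lay below every PGE2 library. The ratio of the Nr4a2 counts, 36 against 58, was 0.605 with a 95% counting interval from 0.388 to 0.933. With the EP3 antagonist Nr4a2 stood at 33.8, 38.9, 38.4 and 23.7 CPM, below every PGE2 library, and its log2 fold change was -0.78 ± 0.39 (adjusted p = 0.567). Pde3b stood at 25.4, 22.7, 24.5 and 44.7 CPM with this antagonist, a log2 fold change of -0.91 ± 0.37 (adjusted p = 0.408).

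The single antagonists did not bring the genes back to the untreated level. Against untreated cells, 5 of 5 genes were called higher with the EP2 antagonist (4.87% of all genes) and 5 of 5 with the EP4 antagonist (6.97%). The smallest of these rises was that of Pkib with the EP2 antagonist, 0.84 ± 0.15 on the log2 scale (adjusted p = 8.93e-06). The calls of Pde3b were the least stable. Its rise with the EP2 antagonist (adjusted p = 0.00494) was lost without untreated library B or EP2 antagonist library C (0.0570 and 0.0512), and its rise with the EP4 antagonist (0.0118) without untreated library B or D or EP4 antagonist library C (0.0758, 0.0586 and 0.101). Compared with the EP2 antagonist alone, the libraries labelled EP2 plus EP4 antagonists had 3 of the 5 genes lower (2.16% of all genes), namely Nr4a2 by 2.44 ± 0.59 (adjusted p = 0.00618), Pde4b by 1.45 ± 0.30 (0.000482) and Pkib by 0.77 ± 0.14 (2.69e-05). The call of Nr4a2 was lost without library A of either group (adjusted p = 0.0850 and 0.0555). Crem was lower there by 1.55 ± 0.51 with no overlap, at an adjusted p of 0.123 that became 0.00144 in a fit of the 2 groups alone. Compared with the EP4 antagonist alone, 4 of the 5 were lower (5.49%), with Pde3b the exception at -0.92 ± 0.41 (adjusted p = 0.204). Between the EP2 and the EP4 antagonist none of the 5 was called (0.0174%), although Crem was lower with the EP2 antagonist in all 4 libraries (-0.96 ± 0.43, adjusted p = 0.759).

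On a common scale, with untreated cells at 0% and PGE2 alone at 100% of each gene's rise in CPM, Crem kept 34.1% ± 6.29 (SD, n = 4) with the EP2 antagonist, 83.3% ± 41.6 with the EP4 antagonist and 8.65% ± 5.59 in the libraries labelled EP2 plus EP4 antagonists. Pde4b kept 39.1% ± 14.5, 69.4% ± 22.4 and 2.35% ± 5.07 in the same order. Pkib kept 56.8% ± 20.3, 76.2% ± 30.2 and 6.18% ± 14.0. None of these genes was called in the test of the EP2 against the EP4 antagonist given above. Pde3b kept 76.2% ± 47.6 with the EP2 antagonist and 73.7% ± 32.4 with the EP4 antagonist, and it kept 32.1% ± 25.4 with the EP3 antagonist.

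**Figure D2:**
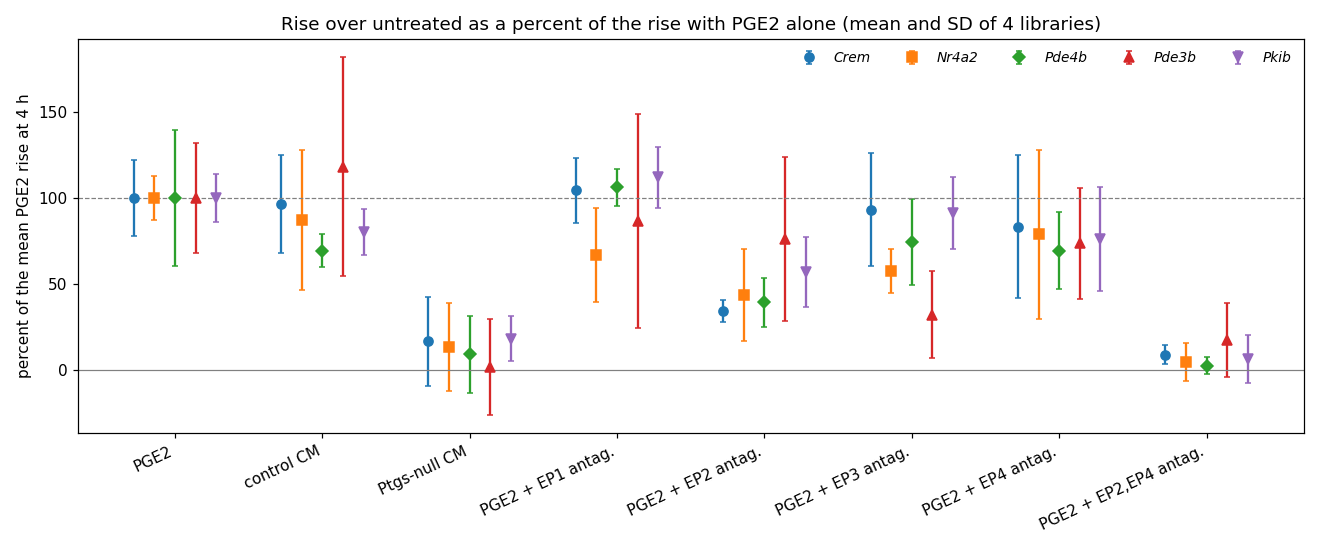
Rise over untreated cells in CPM as a percent of the rise with PGE2 alone (y axis), mean and SD of 4 libraries, for the 5 genes tested at 4 h in the 8 treated groups. The libraries labelled EP2 plus EP4 antagonists lie between 2.35% for Pde4b and 17.2% for Pde3b, and the EP2 antagonist lies between 34.1% for Crem and 76.2% for Pde3b.

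How long did the response to PGE2 last? After 24 h, Pde4b was the single gene called with PGE2 among those that the fit at 24 h could test. In the fit over the 16 libraries at 24 h, Crem, Nr4a3, Pde4b and Pkib passed the expression filter and 1 of these 4 was called with PGE2 (8.06% of all 5273 tested genes). Low genes among these 4 passed through groups in which they were high, so the counts of calls at 24 h are no separate support. Nr4a3, for example, had 23 and 29 counts untreated and with PGE2, and 919 with poly I:C. Pde4b stood at 37.7, 25.4, 16.9 and 16.5 CPM in untreated cells and 110, 156, 142 and 67.6 CPM with PGE2, a log2 fold change of 2.33 ± 0.28 (adjusted p = 1.80e-12). Between the same groups, summed markers of cDC2 went from 138 to 186 CPM untreated to 257 to 312 CPM with PGE2, those of macrophages or monocytes from 1194 to 1618 CPM to 1751 to 2103 CPM, and those of cDC1 from 10790 to 11160 CPM to 7104 to 7343 CPM. None of these marker ranges overlapped, and their part in the result was not tested. Among the cDC2 markers, Cd7 went from 4.31 to 48.1 CPM and Cd209a from 75.7 to 103 CPM in the mean, while Epcam went from 54.0 to 48.7 CPM. Sirpa had 0 counts untreated and 5 with PGE2, and Mgl2 had 3 and 0. Crem stood at 16.2, 16.9, 14.1 and 16.5 CPM untreated and 33.8, 27.9, 34.0 and 29.0 CPM with PGE2. The groups did not overlap, on 22 and 39 counts in all, and the log2 fold change of 0.98 ± 0.42 had an adjusted p of 0.156. Pkib, at 237, 212, 256 and 320 CPM against 355, 293, 294 and 367 CPM, overlapped and had a log2 fold change of 0.37 ± 0.13 (adjusted p = 0.0523). Without untreated library D, or PGE2 library B or C, its adjusted p was 0.0105, 0.0431 and 0.0387. With a term for the library letter in the fit Pkib also passed the threshold, as given in the closing section.

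The difference between the times was tested itself, in a fit of untreated and PGE2 libraries from 4 h and 24 h, where 5403 genes and 5 of the 7 passed the filter. Of these 5, Nr4a2 passed through PGE2 at 4 h, so the counts of calls here are no separate support either. The PGE2 effect at 24 h was smaller than at 4 h for 2 of these 5 (4.37% of all genes called). Crem differed by -3.92 ± 0.67 on the log2 scale (adjusted p = 5.04e-06) and Pkib by -0.91 ± 0.20 (adjusted p = 0.000701). For Pde4b the difference was -0.51, with a 95% interval from -1.45 to 0.42, and for Pde3b it was -1.45, with an interval from -2.72 to -0.17 (adjusted p = 0.233). Between untreated cells of the 2 times none of the 5 was called (4.33%), and Crem had the largest difference of the 4 that had more than 3 counts in each group, 1.45 ± 0.61 (adjusted p = 0.188). Time and the day or batch of the cultures cannot be told apart in this design.

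Nr4a2, Pde3b and Nr4a1 were below the expression filter at 24 h, and were compared by exact permutation tests of CPM, two-sided, for which 0.0286 is the smallest p that 4 libraries against 4 allow and 0.081 the value after adjustment over the 17 tests of this kind. Nr4a2 had 1, 0, 0 and 1 counts in untreated cells and 7, 4, 4 and 2 with PGE2, a ratio of 9.45 (95% counting interval 2.24 to 84.4) with no overlap of the CPM (p = 0.0286, exact permutation test). Pde3b stood at 21.6, 19.8, 14.1 and 19.8 CPM untreated and 22.5, 25.1, 37.1 and 33.8 CPM with PGE2, again without overlap (p = 0.0286, exact permutation test). Neither passed after adjustment. Even groups without overlap came to 0.081 here, so missing the threshold does not show that these genes were unchanged. Nr4a1 had 2 counts untreated and 5 with PGE2 (p = 0.200, exact permutation test).

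**Figure D3:**
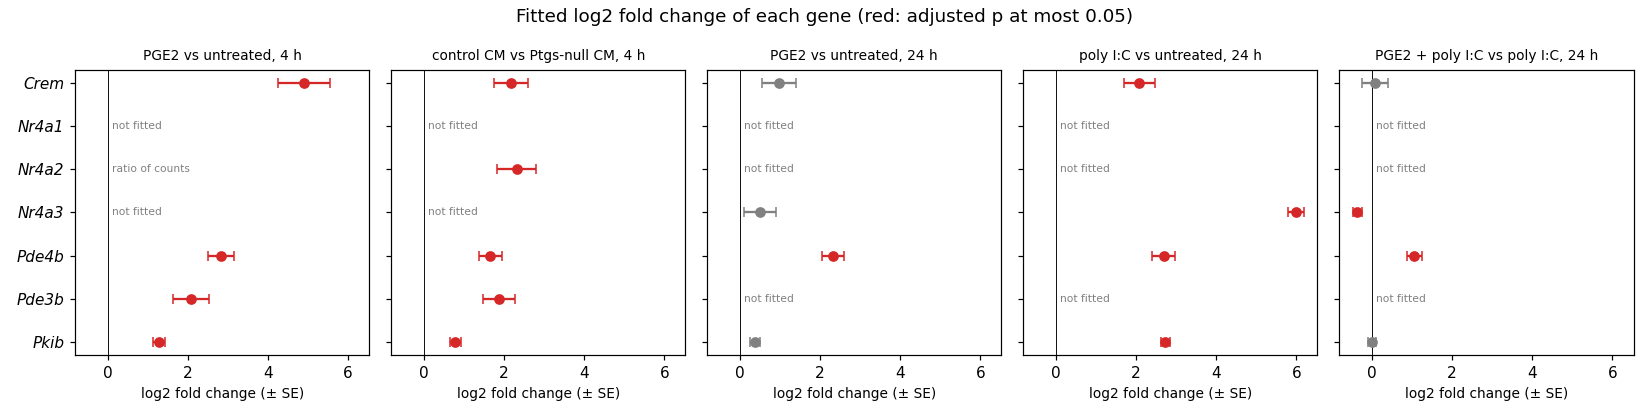
Fitted log2 fold change with its SE (x axis) of each gene (y axis) in 5 comparisons, red where the adjusted p of edgeR's quasi-likelihood test was at most 0.05 and grey where it was not. Crem falls back from 4.89 with PGE2 at 4 h to 0.98 at 24 h, Pde4b stays above 2 at both times, and Nr4a3 stands at 5.99 with poly I:C. Genes under the expression filter carry the words not fitted. Nr4a2 with PGE2 at 4 h carries the words ratio of counts and has no plotted value.

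How did the genes respond to TLR3 stimulation, with and without PGE2? With poly I:C for 4 h, 4 of the 4 tested genes rose against untreated cells at 24 h, but so large a share of all genes was called (65%) that this count says little about them. Their sizes differ widely. Nr4a3 stood at 26.9, 8.47, 14.1 and 16.5 CPM in untreated cells and at 1105, 1042, 1235 and 1232 CPM with poly I:C. This log2 fold change of 5.99 ± 0.20 (adjusted p = 6.18e-72), or 63.7-fold, was the largest of any of the 7 genes in any comparison against untreated cells. Pkib rose from 212 to 320 CPM untreated to 1774 to 1853 CPM (2.73 ± 0.11, adjusted p = 5.48e-58). Pde4b reached 161, 144, 239 and 134 CPM (2.68 ± 0.28, adjusted p = 4.23e-17) and Crem 80.6, 111, 56.1 and 49.3 CPM (2.08 ± 0.39, adjusted p = 9.56e-07). The scaling matters for these sizes, because poly I:C moved the median log2 fold change of all genes to -0.10 with TMM and to -0.82 with library totals alone. With library totals the log2 fold changes were 5.28 for Nr4a3, 2.01 for Pkib, 1.97 for Pde4b and 1.37 for Crem, all still called.

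Nr4a2 and Pde3b were under the expression filter at 24 h. With poly I:C, Nr4a2 had 2 counts in each of the 4 libraries (8.96 to 11.5 CPM), above the 0 to 3.30 CPM of untreated cells, with a ratio of 6.998 (8 against 2 counts, 95% counting interval 1.40 to 67.6). Pde3b had 2, 1, 3 and 1 counts (11.5, 5.54, 14.0 and 4.48 CPM), all below the untreated libraries, although the highest was 14.04 CPM against 14.07 CPM in the lowest untreated one. The ratio was 0.471, with a counting interval from 0.173 to 1.11. Each of these 2 comparisons reached the smallest possible exact permutation p of 0.0286, which came to 0.081 after adjustment. Missing the threshold therefore does not show that these genes were unchanged. Nr4a1 had 2 counts in either group.

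PGE2 together with poly I:C raised Pde4b further and lowered Nr4a3. Of the 4 tested genes 2 were called against poly I:C alone (10.7% of all genes). Summed cDC2 markers were 49.9 to 62.7 CPM with poly I:C and 153 to 189 CPM with both stimuli, and plasmacytoid dendritic cell markers 2372 to 2934 CPM and 3229 to 3965 CPM, neither with overlap. Among the cDC2 markers, Cd1d1 went from 6.77 to 53.6 CPM and Ltb from 8.85 to 40.3 CPM in the mean, while Epcam stood at 19.3 and 19.2 CPM. Sirpa had 0 and 6 counts, and Mgl2 had 0 in either group. The part of these markers was not tested. Pde4b stood at 436, 360, 295 and 323 CPM with both stimuli, above every library with poly I:C alone, and rose by 1.06 ± 0.19 on the log2 scale (adjusted p = 6.89e-06). Nr4a3 stood at 1005, 974, 835 and 761 CPM with both, below every library with poly I:C alone, and fell by 0.37 ± 0.12 (adjusted p = 0.0228). The call of Nr4a3 was lost when library C or D of poly I:C (adjusted p = 0.0789 and 0.0639) or library C or D of both stimuli (0.0649 and 0.130) was left out. Crem (93.1, 64.4, 87.3 and 63.1 CPM) and Pkib (1653 to 1901 CPM) overlapped poly I:C alone, with 95% intervals of the log2 difference from -0.57 to 0.70 and from -0.20 to 0.18. Nr4a2, with 10, 14, 6 and 10 counts, stood at 49.0, 60.1, 32.7 and 39.4 CPM, above every other library at 24 h. With library totals alone as the scaling, its library C with both stimuli (20.4 CPM) was below library A of PGE2 (21.75 CPM). The ratio of Nr4a2 to poly I:C alone was 4.53 (counting interval 2.09 to 11.2). Pde3b stood at 34.3, 17.2, 21.8 and 23.7 CPM, also above every library with poly I:C alone, with a ratio of 2.72 (interval 1.11 to 7.56). For both genes the exact permutation p was 0.0286, the smallest possible, and 0.081 after adjustment.

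Against PGE2 alone at 24 h, the 2 stimuli together had 4 of the 4 tested genes higher, where 64.8% of all genes were called. Nr4a3 was higher by 5.13 ± 0.20 and Pkib by 2.35 ± 0.11 on the log2 scale (adjusted p = 4.62e-62 and 3.72e-50). Pde4b was higher by 1.41 ± 0.19 and Crem by 1.16 ± 0.34 (adjusted p = 1.44e-11 and 0.0019). With library totals alone as the scaling, Crem was 0.44 higher and not called (adjusted p = 0.241). The interaction of PGE2 and poly I:C, which asks whether PGE2 acts differently with poly I:C than without it, was called for 1 of the 4 genes (3.34% of all genes). It was Pde4b, whose log2 rise with PGE2 was smaller in the presence of poly I:C by 1.27 ± 0.35 (adjusted p = 0.0181). This call was lost without untreated library C or D, PGE2 library B or poly I:C library C (adjusted p = 0.0780, 0.0547, 0.0719 and 0.121). In CPM, the mean of Pde4b was 24.1 ± 9.95 untreated and 119 ± 39.4 with PGE2, and 170 ± 47.4 with poly I:C and 354 ± 61.2 with both (SD, n = 4 each), a difference between differences that was tested on the log2 scale only. The interaction of Crem was -0.92 ± 0.53, that of Nr4a3 -0.86 ± 0.42 and that of Pkib -0.38 ± 0.16, with adjusted p-values of 0.451, 0.320 and 0.211 by edgeR's quasi-likelihood test. Summed plasmacytoid dendritic cell markers were 136 to 244 CPM in untreated cells at 24 h and 2372 to 2934 CPM with poly I:C, of which the interferon-induced Irf7 and Bst2 supplied 1937 and 597 CPM in the mean, while Siglech, a defining marker, had 15 counts untreated and 1 with poly I:C. Summed cDC1 markers were 10790 to 11160 CPM and 5793 to 6477 CPM in the same groups.

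**Figure D4:**
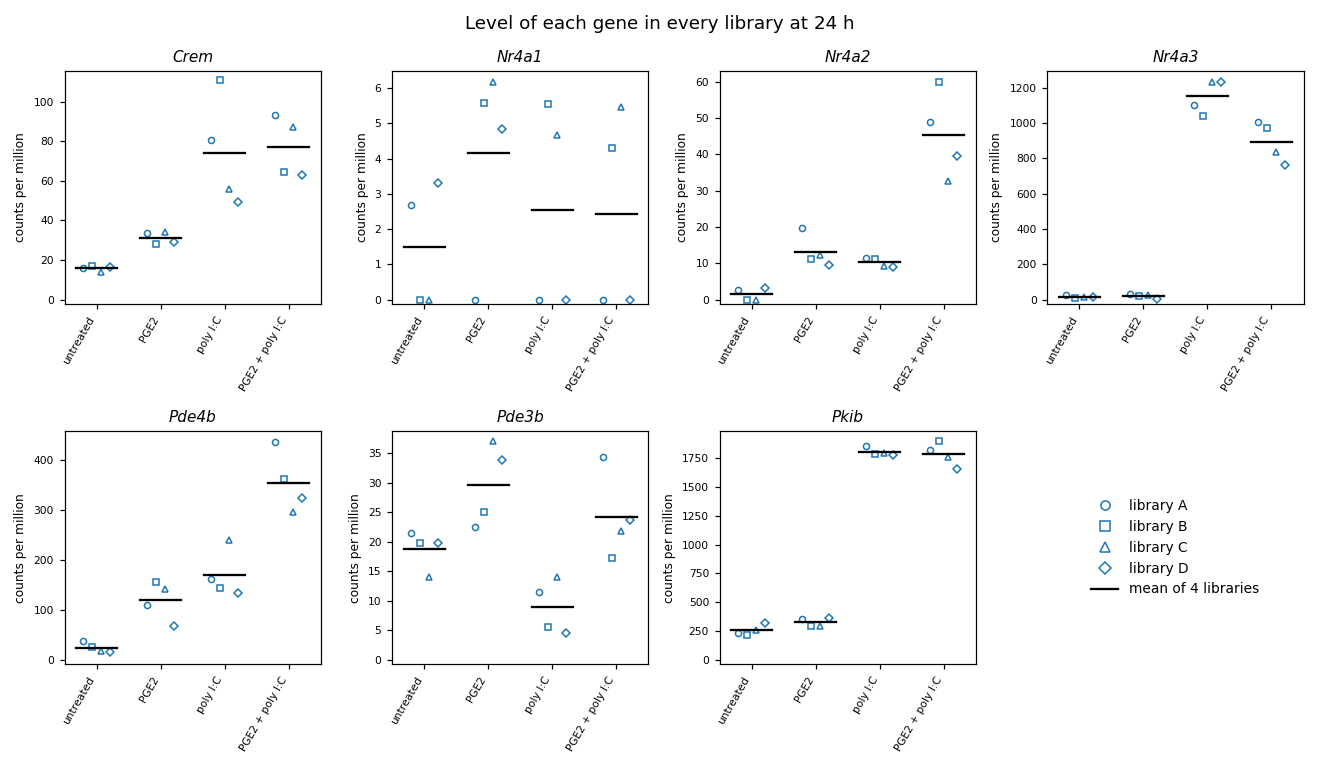
CPM of the 7 genes (y axis, own scale per panel) in each library of the 4 groups at 24 h, with a marker shape for each library letter and a bar for the mean of 4 libraries. Nr4a3 and Pkib are high with poly I:C whether or not PGE2 is present, and Pde4b and Nr4a2 are highest with both stimuli together.

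Across the 13 groups each gene had its own order. Crem had its highest means at 4 h, from 181 CPM with the EP1 antagonist and 174 CPM with PGE2 down to 7.30 CPM in untreated cells, and each neighbour in the order overlapped the next. Nr4a2 ran from 57.0 CPM with PGE2 at 4 h to 1.50 CPM in untreated cells at 24 h, also with every neighbour overlapping. Pde4b was highest at 354 CPM with PGE2 plus poly I:C, which did not overlap the next group, poly I:C alone at 170 CPM. This order depends on the scaling. With library totals alone, both stimuli gave a mean of 221 CPM and overlapped PGE2 at 4 h, whose mean was 165 CPM. Poly I:C alone then stood at 108 CPM, below PGE2 at 24 h with 132 CPM. Pkib stood at 1801 and 1782 CPM with poly I:C and with both stimuli, overlapping each other, and then at 656 CPM with the EP1 antagonist, without overlap. Nr4a3 stood at 1154 and 894 CPM in the poly I:C groups and at 8.98 to 28.9 CPM in the other 11. Pde3b ran from 64.3 CPM with control CM to 8.89 CPM with poly I:C. As a description over 13 group means of log2 CPM, which share libraries and scaling, Pearson's r was 0.79 between Crem and Pde4b, 0.591 between Crem and Pkib and 0.858 between Pde4b and Pkib. Among the 4885 genes that passed both filters, the profiles most like that of Crem were Cmtm6 (r = 0.973), Gpr171 (0.965) and Scin (0.962). Those most like Pde4b were Snx20 (0.975), Cytip (0.975) and Ramp3 (0.966), and those most like Pkib were Rab8b (0.992), Rps27l (0.989) and Akap13 (0.986).

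How did other genes of the pathway move? In the machinery that makes cAMP and carries its signal (26 listed genes, 13 tested at 4 h), 1 rose and none fell with PGE2 at 4 h, a share close to the 8.57% called over all genes, the median log2 fold change of the 13 being 0.29 against -0.01 over all genes tested. It was Prkar1a, a regulatory subunit of protein kinase A, which rose by 0.76 ± 0.15 (adjusted p = 3.98e-05). Control CM against Ptgs-null CM had Prkar1a and the anchoring protein gene Akap13 higher, by 0.55 ± 0.14 and 0.76 ± 0.21 (adjusted p = 0.00615 and 0.0137), 2 of 13 where 3.86% of all genes were called between the media. The receptor gene Ptger2 had 0.78 ± 0.49 with PGE2 (adjusted p = 0.409), and Ptger4 was not tested at 4 h, with 28 counts in untreated cells and 7 with PGE2. Of the other phosphodiesterase genes (17 listed, 4 tested), 1 rose with PGE2 and none fell. This was Pde8a, a cAMP-specific phosphodiesterase, with 1.09 ± 0.35 (adjusted p = 0.0287). None of the 4 was called between the media. Of the CREB family and its coactivators (13 listed, 7 tested), 1 rose with PGE2, the coactivator gene Crtc3, by 1.51 ± 0.46 (adjusted p = 0.0170), and none was called between the media. The median of these 7 was 0.16.

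Of other known CREB targets (24 listed, 10 tested at 4 h), 6 were higher and none was lower with PGE2, with a median of 1.11. Over all genes 8.57% were called in this comparison, in either direction. The circadian repressor gene Nfil3 rose by 3.31 ± 0.51 (adjusted p = 1.13e-06) and the cytokine gene Il1b by 2.84 ± 0.38 (adjusted p = 5.81e-10). Plaur, the urokinase receptor, had 42 counts with PGE2 and 3 in untreated cells (43.4 and 5.15 CPM in the mean, adjusted p = 0.000112). The phosphatase gene Dusp1 rose by 1.77 ± 0.48, Arl4c by 1.04 ± 0.18 and the survival gene Mcl1 by 0.68 ± 0.16, with adjusted p-values of 0.00517, 1.15e-06 and 0.00111. Between the media 4 were higher and 1 was lower in control CM (median 0.58), where 3.86% of all genes were called. Of the immediate early genes (17 listed, 10 tested), 6 were higher and 1 lower with PGE2 (8.57% of all genes called), with a median of 0.68. Fos rose by 1.91 ± 0.48, Ier2 by 1.25 ± 0.27, Ier3 by 1.25 ± 0.23, Junb by 0.82 ± 0.14 and Btg2 by 0.79 ± 0.18, while the growth regulator gene Myc fell by 1.57 ± 0.27 (adjusted p = 1.71e-06). Between the media 3 were higher and 1 lower in control CM (median 0.41, 3.86% of all genes called). At 24 h with PGE2, 1 of 13 cAMP machinery genes, none of 2 other phosphodiesterases, 1 of 5 CREB family genes, 4 of 11 other CREB targets and 3 of 10 immediate early genes were higher, and none was lower, where 8.06% of all genes were called in either direction. These lists were drawn up with earlier results of these data known.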

How the data were processed

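RNA of 52 libraries was sequenced from the 3' end with unique molecular identifiers. Per the labels' protocols, the authors counted unique molecules per gene with the Drop-seq pipeline on GRCm38 with Ensembl release 75, and the deposited counts are whole numbers without normalisation. DESeq2 1.14.1 and GRCm38.p6 stand in the submitters' processing notes. Aligner and strand setting: not given in the sources used here. Of 23136 lines, 1 with a text entry was dropped, and 20 lines with date-like symbols (0.105% of counts) were kept in the totals and named in no result.

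Counts were tested in R 4.3.3 with edgeR 4.0.16 (quasi-likelihood test, robust, TMM, filterByExpr by group), with groups from the labels, 23 comparisons and a threshold of 0.05 on the adjusted p. Separate fits held the libraries at 4 h (36), those at 24 h (16), and the untreated and PGE2 libraries of either time (16). The standard error is the log2 fold change divided by the root of F, and 95% intervals use the degrees of freedom of the fit. Ratios of summed counts carry exact 95% intervals that cover counting error only. Genes under the filter were compared with exact permutation tests on CPM. The test was tried on simulated data with 200 changed genes. Replicate pairs differed by more than counting noise (chi-square per degree of freedom 1.38 to 2.70 over 78 pairs). Alternatives were RLE factors (edgeR), library totals alone, no filter, a term for the library letter, DESeq2 1.42.0, the labels' threshold of a log2 fold change of 1.5, only the groups compared, and leaving out libraries.

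Named are all 7 genes everywhere, per pathway list the up to 6 largest changes among genes called with PGE2 at 4 h, and for likeness the 3 highest correlations. Genes outside this rule (Ptger2, Ptger4, Akap13 between the media and cell markers) were named after their values were seen. The 7 genes and all lists were chosen with earlier results of these data known. Coordinates are from GENCODE M21 (GRCm38).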

Additional observations from a re-analysis of the deposited data

Results flagged for a closer look

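Among 61 groups of 4 checked, 3 held a library far from the others, where chance flags about 1 in 20. Nr4a2 stood at 30.3 CPM in library B of the Ptgs-null CM, where the others lay between 0 and 4.00 CPM. Nr4a2 stood at 13.5 CPM (5 counts) in library C of those labelled EP2 plus EP4 antagonists, where the others lay between 0 and 2.27 CPM. Pde3b stood at 44.7 CPM in library D of the EP3 antagonist, where the others lay between 22.7 and 25.4 CPM.

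For 3 genes the PGE2 effect differed between conditions by a test of the difference itself. The effect on Pde4b was smaller with poly I:C than without it by 1.27 on the log2 scale (interaction -1.27, 4 libraries a group). The effect at 24 h minus that at 4 h was -3.92 for Crem and -0.91 for Pkib.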

How the results depend on the processing

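Of 177 counts of called genes under settings other than leaving out a library, 168 stayed within 1.5 times the reported count, as did 186 of 200 with 1 library left out. Of 829 values of single genes under those settings, 800 kept direction and side of the threshold, 21 were no longer past it and 8 newly past it, and of 952 with 1 library left out, 928, 21 and 3. No called value changed sign. With no filter, the genes called were 1 with Ptgs-null CM against untreated cells (Crem), 2 with the EP2 antagonist against PGE2, 2 with PGE2 at 24 h and 0 for the interaction. DESeq2 called 2 with the EP2 antagonist against PGE2. Fits of only the groups compared called 3 there, 3 of 4 tested in control CM against Ptgs-null CM and 3 of 3 tested in the EP4 antagonist against untreated cells. With 1 library left out, the counts ran from 0 to 1 for the EP2 antagonist against PGE2, 1 to 2 for PGE2 at 24 h, 0 to 1 for the interaction and 1 to 2 for PGE2 with poly I:C against poly I:C. The fits of 2 groups tested a smaller number of genes. The cause of these changes in the calls was not tested.

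Whether the library letters pair the samples was not settled. Same-letter correlations of deviations were weak, with a median of 0.00953 at 4 h and 0.0146 at 24 h. None of 144 and 24 was above 0.1. Between different letters the medians were -0.00393 and -0.00571, and 24 of 36 and 14 of 16 libraries correlated best with their own letter. Without pairing, about 1 in 4 would do so, as there are 4 letters. The fits reported above leave the letter out. With the letter as a replicate block, 2 genes were called with PGE2 at 24 h (Pkib, adjusted p = 0.0390) instead of 1, and the block changed no other call of the 7 genes.

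Counts of called genes over the whole table that moved by over 1.5 times are given here against the reported count. The labels' threshold, which adds a log2 fold change of 1.5, gave 156 of 493 with PGE2, 128 of 432 with control CM and 0 of 5 with Ptgs-null CM at 4 h, 51 of 222 between the media, 1 of 7 for control CM against PGE2, 7 of 24, 0 of 5, 1 of 2 and 111 of 545 for the EP2, EP3 and EP4 antagonists and the labelled pair against PGE2, 63 of 280, 147 of 401 and 2 of 46 for EP2, EP4 and the pair against untreated cells, 21 of 124 and 70 of 316 for the pair against EP2 and EP4, 91 of 425 with PGE2 at 24 h, 1817 of 3429 with poly I:C, 106 of 563 and 1750 of 3415 for both stimuli against poly I:C and PGE2, 49 of 176 for the interaction, 26 of 234 for untreated cells between times and 95 of 236 for the PGE2 effect between times. It removed the calls of Pkib at 4 h. For the pair against untreated cells (46), library totals gave 30, leaving out the 2 shallowest libraries 24 and the compared groups alone 74. For control CM against PGE2 (7) the letter block gave 13 and the compared groups alone 23. For Ptgs-null CM against untreated cells (5) no filter gave 10, DESeq2 1, no shallowest libraries 3 and the compared groups alone 2. The EP2 antagonist against PGE2 (24) had 82 with the compared groups alone, EP3 (5) had 9 there and 0 with no filter or DESeq2, and EP4 (2) had 0 with no filter or DESeq2 and 1 without the shallowest libraries. EP2 against EP4 (1) had 2 with no filter, 9 with the compared groups alone and 0 with library totals, block, DESeq2 or no shallowest libraries. No filter gave 81 of 176 for the interaction, 151 of 234 for untreated cells and 129 of 236 for the PGE2 effect between times. With 1 library left out, the lowest counts were 21 of 46 (pair against untreated), 0 of 5 (Ptgs-null CM), 138 of 222 (between the media), 2 of 7 (control CM against PGE2), 7 of 24, 0 of 5 and 0 of 2 (EP2, EP3 and EP4 against PGE2), 0 of 1 (EP2 against EP4), and 74 of 124 and 205 of 316 (pair against EP2 and EP4).

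Scaling by library totals alone moved the split of higher and lower calls: with PGE2 at 4 h from 299 and 194 to 242 and 321, with control CM from 269 and 163 to 230 and 235, between the media from 134 and 88 to 120 and 121, for the labelled pair against PGE2 from 236 and 309 to 381 and 262, against the EP2 antagonist from 34 and 90 to 51 and 74 and against the EP4 antagonist from 115 and 201 to 181 and 173, for the EP2 antagonist against PGE2 from 5 and 19 to 6 and 12, for the EP2 and EP4 antagonists against untreated cells from 171 and 109 to 146 and 142 and from 242 and 159 to 203 and 263, with poly I:C from 1646 and 1783 to 1015 and 2997, with both stimuli against PGE2 from 1621 and 1794 to 919 and 2995, and for the PGE2 effect between times from 114 and 122 to 166 and 91. Depth limits Nr4a1 everywhere and Nr4a3 at 4 h.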
